A study of Mus musculus with 3 samples.

Results

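The cells described here were Pomc cells of the mouse pituitary intermediate lobe (IL) that carried transcripts of corticotroph marker genes. They had few or no transcripts of the melanotroph genes Pcsk2, Pax7 and Oacyl. They were selected on measured values: in a barcode (1 captured cell), Pomc made up at least 3% of the UMIs (unique molecular identifiers, each standing for 1 captured transcript), at most 1 UMI came from Pcsk2, no UMI came from Pax7 or Oacyl, and at least 1 UMI came from Crhr1, Avpr1b, Gpc5 or Tnnt1. The rule found 61 of 9661 barcodes. They were 31 of 2020 in the library labelled WT, 14 of 4153 in that labelled P27NULL and 16 of 3488 in that labelled S2CK. The comparison group was the melanotrophs of the same libraries, defined as barcodes with Pomc at 5% of the UMIs or more and at least 2 Pcsk2 UMIs, of which there were 1245, 3481 and 2968. No barcode of the set had a UMI of Avpr1b or Gpc5, which in 61 cells allows a share of up to 4.92% of cells with a UMI. The set therefore rested on 2 detected markers, Tnnt1 and Crhr1, too few to name a cell type, and the cells are called Tnnt1/Crhr1 Pomc cells below.

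The study asked how SOX2 acts in IL stem cells (SCs) and melanotrophs when mice lack P27, the cyclin-dependent kinase inhibitor encoded by Cdkn1b. ILs of mice aged 3 months were dissected free of the anterior lobe (AL) and the posterior lobe, dissociated and sequenced by droplet single-cell RNA-seq, with 1 library per genotype. The WT mice carried Sox9iresCreERT2/+, an allele that places a tamoxifen-inducible Cre under the control of Sox9 and so in SCs and not in hormone cells. P27NULL mice carried Sox9iresCreERT2/+ with p27-/-, and S2CK mice carried Sox9iresCreERT2/+ with Sox2fl/+ and p27-/-. All 3 groups received tamoxifen, by gavage at 4 weeks in the labels. The published description places Cre induction at birth instead, so the age at which Sox2 was deleted is uncertain. According to the methods each library held cells pooled from several mice, 2 males for WT and both sexes for P27NULL and S2CK. In S2CK the Y-linked genes checked had no entry in the table and Xist was at 979 CPM in melanotrophs, against 155 in P27NULL, so males in the S2CK pool were not seen in the data, and genotype, sex and library cannot be told apart. The deletion of p27 was in every cell of P27NULL and S2CK mice, whereas that of Sox2 depended on Cre.

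Corticotrophs and melanotrophs are the Pomc-expressing cells of the pituitary, normally found in the AL and the IL, respectively. Both arise under the control of the transcription factor TBX19. In corticotrophs PCSK1 cleaves proopiomelanocortin to ACTH, which drives the adrenal gland to release glucocorticoids, and glucocorticoids in turn repress Pomc through the receptor encoded by Nr3c1. In melanotrophs PAX7 sets the fate, PCSK2 cuts ACTH further to α-MSH, and dopamine acting through the D2 receptor restrains secretion.

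The 3 libraries held 8332285, 15588317 and 19239147 UMIs in all for WT, P27NULL and S2CK, of which the Tnnt1/Crhr1 Pomc cells gave 104424, 38956 and 60972. Their median UMI totals per cell were 3560, 2343 and 3327.5, below the melanotroph medians of 4298, 2875 and 5060.5 in every library. Mitochondrial genes made up 5.33%, 5.76% and 7.08% of the summed UMIs of the cells, against 5.46%, 5.12% and 7.52% in melanotrophs. The libraries shared 2, 4 and 4 barcode sequences pairwise, none of them among the 61 cells. Xist, transcribed from the inactive X chromosome, had a UMI in 8 of the 14 P27NULL cells and 14 of the 16 S2CK cells and no entry in the WT table. Y-linked genes had a UMI in 6 WT cells and 1 P27NULL cell.

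Tnnt1, which encodes the slow skeletal muscle troponin T, was the marker found in most of the cells. It had a UMI in 26 of 31 cells in WT, 13 of 14 in P27NULL and 14 of 16 in S2CK, with 76, 24 and 37 UMIs in all. Crhr1, the receptor through which hypothalamic CRH stimulates corticotrophs, had a UMI in 8, 2 and 6 cells, with 12, 2 and 7 UMIs. Cells with UMIs of both numbered 3, 1 and 4. In 15, 5 and 5 cells a single marker UMI placed the cell in the set, and 10, 3 and 3 cells had the 1 Pcsk2 UMI that the rule allowed. In GRCm38 Tnnt1 lies at chr7:4504569-4515975, Crhr1 at chr11:104130463-104175523 and Pomc at chr12:3954945-3960643. These counts describe the selection and were not tested.

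The markers were also found outside the set. Among melanotrophs 4.58% in WT, 1.24% in P27NULL and 3.74% in S2CK had at least 1 marker UMI. When each cell was thinned to 1000 UMIs, the shares were 1.14%, 0.517% and 0.943% in melanotrophs and 63.3%, 71.4% and 37.5% in the Tnnt1/Crhr1 Pomc cells. Of the 522, 313 and 369 Tnnt1 UMIs of the libraries, 14.6%, 7.67% and 10.0% were in the set, and 346, 219 and 226 were in barcodes with Pomc under 3% that met the other limits. Crhr1 was distributed differently, since 42 of 68, 36 of 54 and 102 of 131 of its UMIs were in melanotrophs. In pooled UMIs Crhr1 was at 4.93 CPM (counts per 1000000 UMIs) in melanotrophs and 103 in the set, and Tnnt1 was at 3.04 CPM in melanotrophs.

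Pomc itself was at moderate levels. The median Pomc share was 5.89% of the UMIs of a cell in WT (lowest 3.03%, highest 25.8%), 4.11% in P27NULL (3.14% to 12.2%) and 4.09% in S2CK (3.03% to 23.6%). The melanotroph medians were 14.7%, 13.1% and 12.9%. In the plot of Pomc share by cell, 7, 6 and 7 cells lay between 3% and 4%, just above the lower limit, and 4, 1 and 1 cells had 10% or more.

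**Figure D1:**
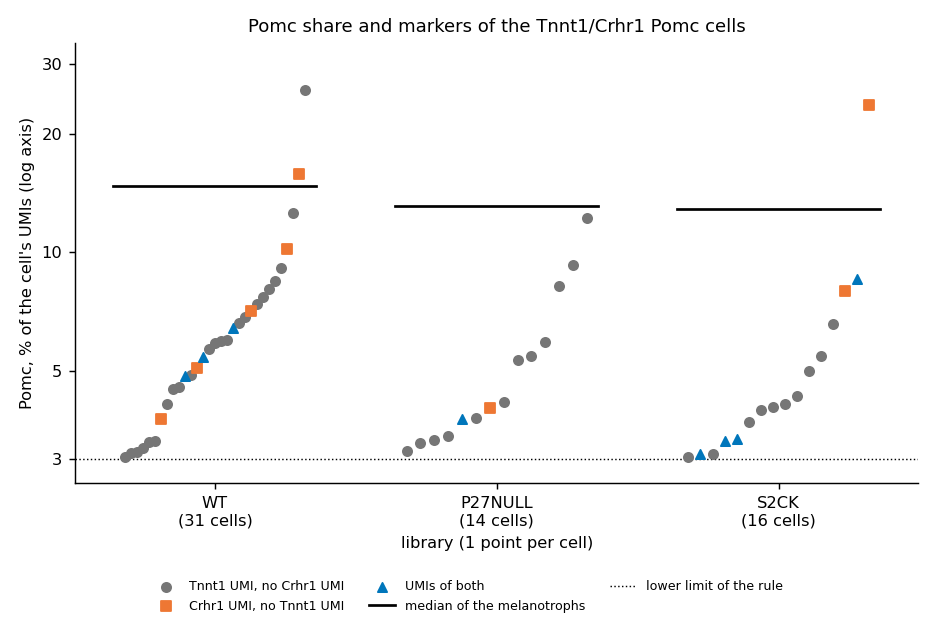
Pomc as a percentage of each cell's UMIs (log axis) in the 31 WT, 14 P27NULL and 16 S2CK cells, 1 point per cell in rising order, with symbols for UMIs of Tnnt1, of Crhr1 or of both. The dotted line is the lower limit of 3%, and the solid lines are the melanotroph medians of 14.7%, 13.1% and 12.9%, which all but 3 cells lay below.

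The cells made up 1.53% of the WT barcodes (exact 95% binomial interval 1.05% to 2.17%), 0.337% of P27NULL (0.184% to 0.565%) and 0.459% of S2CK (0.262% to 0.744%). The WT interval did not overlap the others, which overlapped each other. With 1 library per genotype this difference has no replicate check, and the intervals cover counting error only. Whole dissected ILs were loaded without a sort, so a share also moves with the number of the other cells and with any AL tissue carried along. When all barcodes were first thinned to 1000 UMIs, the shares were 1.40%, 0.313% and 0.545%, from 26, 13 and 19 cells. Of these, 4, 2 and 12 were melanotrophs at full depth, because thinning removes Pcsk2 UMIs. Without the marker requirement the shares were 3.12%, 0.819% and 1.15%, and with Pomc at 5% or more they were 0.941%, 0.144% and 0.172%. WT had the highest value under each of these limits. With at least 2 marker UMIs its interval (0.453% to 1.28%) overlapped that of S2CK (0.158% to 0.564%).

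**Figure D2:**
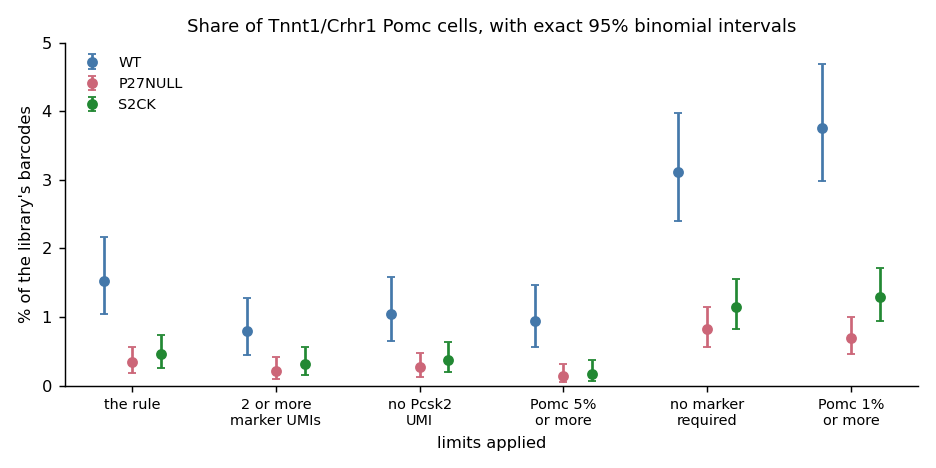
Percentage of each library's barcodes that met the rule and 5 altered forms of it, with exact 95% binomial intervals as error bars (counting error only). WT was the highest of the 3 libraries throughout, from 0.792% with at least 2 marker UMIs to 3.76% with Pomc at 1% or more.

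Transcripts that mark other pituitary cells were scarce in the set. Endothelial and connective tissue markers had no UMI in any of the 61 cells, pituicyte markers had 1, 0 and 0, and lactotroph markers had 1, 0 and 0. Somatotroph markers had 8, 0 and 1 UMIs, gonadotroph markers 10, 36 and 5, thyrotroph markers 4, 33 and 0, SC markers 5, 11 and 0, and macrophage markers 1, 0 and 58. Sox2, which SCs and melanotrophs both express, was not counted among the 7 SC markers. It had 9, 4 and 0 UMIs, in 7, 4 and 0 cells. In P27NULL 33 of the gonadotroph and thyrotroph UMIs were Cga, the shared glycoprotein hormone subunit, in a single cell, and another cell had 10 SC marker UMIs. In S2CK all 58 macrophage UMIs were in 1 cell. These 3 cells were kept, and values that rest on them are given without them as well.

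When the cells of each library were clustered without the genes of the rule, most of the set fell together. One cluster held 23 of 31 cells in WT (74.2%), 13 of 14 in P27NULL (92.9%) and 13 of 16 in S2CK (81.2%). In S2CK the genes leading that cluster of 79 cells were Tnnt1, Nnat, Rprml, Rasd1, Kcnk2, Cebpd, Gm2694, Nr3c1, Lmo1 and Epha5. In WT the genes leading the cluster of 207 cells included Prl, Tshb and Gh, hormone genes of other AL cell types, beside Nnat, Tnnt1, Rasd1 and Cebpd. In P27NULL Prl and Gh also led the cluster, of 142 cells, with Nnat and Tnnt1 next. In S2CK Prl and Gh led another cluster, of 34 cells, which held none of the set and had Nnat and Cebpd among its leading genes. The 12 cells that fell elsewhere differed from the 49 in the shared clusters in several genes, given here as a description. Nnat was at 288 CPM in the 12 and 2446 in the 49, Nr3c1 at 28.8 and 165, and Neurod1 at 0 and 82.5. Of the markers that chose the cells, Tnnt1 was at 836 CPM in the 12 cells and 637 in the 49, and Crhr1 at 28.8 (1 cell) and 118 (15 cells). The set was thus mixed, and its sums below are averages over both kinds of cell.

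Set against the melanotrophs of their own library, the Tnnt1/Crhr1 Pomc cells had higher transcript levels of several genes. These included the neuronatin gene Nnat, the potassium channel gene Kcnk2, the glucocorticoid receptor gene Nr3c1 and the bHLH factor gene Neurod1. Transcript levels were lower for 4 of 5 tested melanotroph genes that the rule had not used. So were those of the granule protein genes Chga and Resp18. UMIs were summed per library and class, and the 6 sums were compared with edgeR's quasi-likelihood test with the library as a block. Of 5443 genes tested, 112 (2.06%) were higher and 129 (2.37%) lower in the Tnnt1/Crhr1 Pomc cells at a Benjamini-Hochberg adjusted p under 0.05. The direction was the same in all 3 libraries for 229 of the 241 genes, a count that the call on these same sums favours. The classes were separated by genes of the same cells, so these counts describe what goes with the rule and are not independent evidence that the classes differ. Without normalization factors, on plain UMI totals, the split was 208 higher and 57 lower, and the median of all genes moved from −0.02 to 0.27 on the log2 scale. Without the 3 cells that carried other markers the counts were 122 and 164.

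Nnat, an imprinted gene for a small membrane protein of neuroendocrine cells, had 425 UMIs in the set. Its level was 1705, 3778 and 1643 CPM in the Tnnt1/Crhr1 Pomc cells of WT, P27NULL and S2CK and 26.6, 13.5 and 15.4 in the melanotrophs. A Nnat UMI was found in 63.9% of the cells and 2.26% of melanotrophs. The groups did not overlap, and the log2 fold change was 6.64 ± 0.24 (SE; adjusted p = 3.29e-18). Nnat lies at chr2:157560078-157562525 in GRCm38, within the span of Blcap, so that reads of these genes could be shared.

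Kcnk2, which encodes the background potassium channel TREK-1, had a UMI in 72.1% of the cells against 6.33% of melanotrophs. It was at 536, 617 and 460 CPM in the WT, P27NULL and S2CK libraries, above 24.3, 16.1 and 13.3 in melanotrophs (log2 fold change 4.57 ± 0.24, adjusted p = 4.05e-14). Rasd1, a dexamethasone-induced Ras-like GTPase gene, was at 699, 334 and 641 CPM, above 40.9, 48.8 and 18.2 (3.83 ± 0.28, adjusted p = 1e-10). Cebpd, a C/EBP transcription factor gene that glucocorticoids induce, was at 469, 180 and 214 CPM, above 28.7, 8.12 and 5.38 (4.15 ± 0.35, adjusted p = 1.49e-09). For none of the 3 genes did a Tnnt1/Crhr1 Pomc sum reach down to a melanotroph sum. In pooled melanotrophs Nnat, Kcnk2 and Cebpd were at 16.57, 16.15 and 10.32 CPM, under the 20 CPM needed for testing. Their level in the set thus helped to bring them into the test.

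Nr3c1, the glucocorticoid receptor gene through which the adrenal feeds back on corticotrophs, was at 76.6, 129 and 263 CPM, above 5.35, 4.02 and 4.02 in melanotrophs. Its log2 fold change was 4.72 ± 0.60 (adjusted p = 4.19e-06), and 26.2% of the cells had a UMI against 1.79% of melanotrophs. In S2CK 7 of the 16 Nr3c1 UMIs were in 1 cell, the deepest of that library's set. Neurod1, a bHLH activator of Pomc in corticotrophs, was at 86.2, 77.1 and 32.9 CPM, above 0.649, 0.745 and 0.355 (6.43 ± 0.84, adjusted p = 5.69e-06). A Neurod1 UMI was present in 21.3% of the cells and 0.221% of melanotrophs. Both were under 20 CPM in every melanotroph sum, so only their level in the set brought them into the test. Both genes had few transcripts per cell, and in the 16 cells with 1 Pcsk2 UMI Nr3c1 had none, whereas it was at 192 CPM in the 45 cells without Pcsk2.

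The other named genes that were higher had fewer UMIs. Each was under 20 CPM in every melanotroph sum, so only its level in the set brought it into the test. Their adjusted p-values are therefore not independent evidence of a difference. Adcy2, an adenylyl cyclase gene, had 7 UMIs in the set and 0 in 7694 melanotrophs, a level at least 417-fold higher when 3 counts over the group stand for the 0. Qrfpr, the receptor gene for the neuropeptide QRFP, had 9 UMIs, in 14.8% of the cells against 0.065% of melanotrophs (log2 fold change 7.82 ± 0.999, adjusted p = 4.19e-06). Without the 3 cells with other markers Qrfpr fell under the level needed for testing. Cntnap5a, of the contactin-associated protein family, had a log2 fold change of 6.76 ± 0.86 (adjusted p = 4.19e-06). For Foxl2, a forkhead factor gene of gonadotrophs and thyrotrophs, it was 6.22 ± 0.84 (adjusted p = 8.29e-06), and for Rprml, a reprimo-like gene, 4.8 ± 0.62 (adjusted p = 5.64e-06). Cartpt, which encodes the CART neuropeptide, gave 5.05 ± 0.91 (adjusted p = 0.000518), and Irs4, an insulin receptor substrate gene, 4.77 ± 0.88 (adjusted p = 0.000646). With P27NULL left out, Cartpt (adjusted p = 0.123) and Irs4 (0.0866) no longer passed the test.

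**Figure D3:**
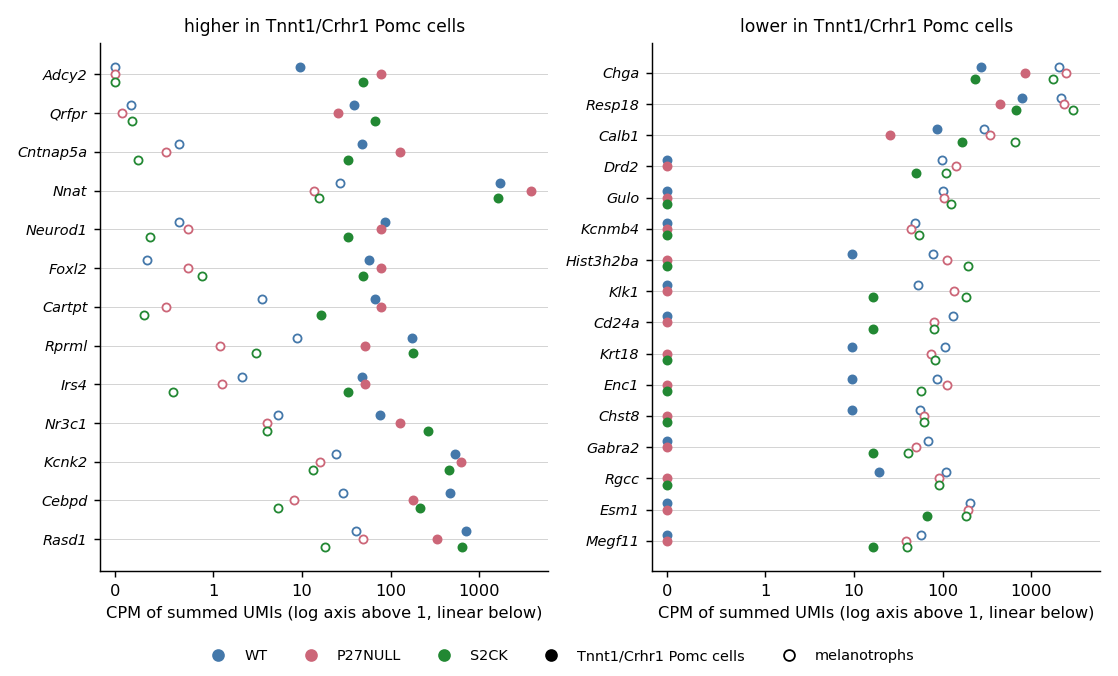
CPM of summed UMIs for named genes in the Tnnt1/Crhr1 Pomc cells (filled circles) and melanotrophs (open circles) of WT, P27NULL and S2CK, on an axis that is logarithmic above 1 and linear below. Each circle is 1 sum, with no error bar. For Nnat the filled circles lay between 1643 and 3778 CPM and the open circles between 13.5 and 26.6; for Chga they lay between 230 and 848 and between 1771 and 2432.

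The genes that were lower included 4 of the 5 tested melanotroph genes that the rule had not used (median log2 fold change of the list −3.18, against −0.02 for all genes). Of all genes tested 2.37% were lower. Drd2, the dopamine D2 receptor gene, had 3 UMIs in the set, a level lower by a ratio of 8.04 (exact 95% counting interval 2.75 to 39.0; adjusted p = 0.00111). Esm1, which encodes the secreted proteoglycan endocan, had 4 UMIs, all in S2CK, and was at 205, 192 and 181 CPM in the melanotrophs (log2 fold change −3.59 ± 0.53, adjusted p = 3.14e-05). Megf11 and Rbfox3 had 1 and 2 UMIs (ratios 8.53 and 6.0 lower, adjusted p = 0.0195 and 0.0159). The calls of Megf11 and Rbfox3 were lost under 7 and 5 of the alternatives, and that of Esm1 under DESeq2's Wald test (adjusted p = 0.183). Sox2, the tested member of the list that did not pass, had a log2 fold change of 0.40 (adjusted p = 0.82).

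Gulo, which encodes the last enzyme of vitamin C synthesis, had no UMI in any of the 61 cells. In melanotrophs it was at 99.6, 104 and 125 CPM, with a UMI in 37.3% of cells, so that its level in the set was at least 7.68-fold lower. Kcnmb4, a subunit gene of the large-conductance calcium-activated potassium channel, was also at 0 in the set and in 19.1% of melanotrophs. By the same limits it was at least 3.36-fold or 2.73-fold lower. Other genes with 1 or 2 UMIs in the set were Hist3h2ba (a histone H2B gene) and Klk1 (a tissue kallikrein gene), each lower by a ratio of 29.3, Cd24a (17.9, a surface glycoprotein gene), Krt18 (16.9, a keratin gene), Enc1 (16.7), Chst8 (12.3, a sulfotransferase gene), Gabra2 (9.94, a GABA-A receptor subunit gene) and Rgcc (9.48). All passed the test, but with so few UMIs the intervals of the ratios were wide, from 5.25 to 1160 for Hist3h2ba and from 1.78 to 393 for Gabra2. The call of Gabra2 was lost under 4 of 19 alternatives (adjusted p up to 0.277), that of Chst8 under DESeq2's Wald test (0.105) and that of Klk1 without the library block (0.0634).

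Better supported by counts, although chosen after their values were seen, were genes of the secretory granule. Of 9 tested granin and granule cargo genes 4 were lower and 0 higher, with a median log2 fold change of −0.91. Among all genes tested 2.37% were lower and 2.06% higher. Chga, which encodes chromogranin A, was at 268, 848 and 230 CPM in the WT, P27NULL and S2CK libraries, below 2071, 2432 and 1771 in melanotrophs (−2.74 ± 0.20, adjusted p = 1e-10). Resp18, a neuroendocrine granule protein gene, was at 786, 437 and 674 CPM, below 2144, 2317 and 2938 (−2.18 ± 0.17, adjusted p = 3.93e-10). Chgb, which encodes chromogranin B, and Syt1, a synaptotagmin gene of calcium-triggered release, were lower by smaller amounts (−1.16, adjusted p = 8.17e-05, and −0.97, adjusted p = 0.00488). Calb1, a calcium-binding protein gene, had a log2 fold change of −2.37 ± 0.28 (adjusted p = 1.07e-06).

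Among 7 tested genes of prohormone processing 1 was higher and 1 lower, against 2.06% and 2.37% of all genes tested. Pcsk1, whose enzyme makes ACTH, did not pass the test (log2 fold change 0.39, adjusted p = 0.855), nor did its inhibitor gene Pcsk1n (−0.32, adjusted p = 0.188) or Scg5, the chaperone gene for PCSK2 (−0.49, adjusted p = 0.0674). Cpe, the carboxypeptidase E gene, was lower (−0.85 ± 0.19, adjusted p = 0.00383), although not with plain UMI totals. Qpct, the glutaminyl cyclase gene, was higher (2.39 ± 0.63, adjusted p = 0.0198). It was under 20 CPM in every melanotroph sum, so only its level in the set brought it into the test. The call of Cpe was lost under 4 of 20 alternatives and that of Qpct under 5 of 19, Pomc at 5% of the UMIs among them for both, and the fit without WT for Qpct.

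The transcription factors of the Pomc lineage differed in 1 of 9 tested members, Neurod1, which was higher, as were 2.06% of all genes tested. Tbx19, required for Pomc expression in both lineages, was at 220, 77.1 and 148 CPM in the WT, P27NULL and S2CK libraries, against 78.3, 71.0 and 60.5 in melanotrophs. Each Tnnt1/Crhr1 Pomc sum was above that of its own library, but in P27NULL it rested on 3 UMIs and fell below the WT melanotroph sum, so the groups overlapped (log2 fold change 0.92 ± 0.31, adjusted p = 0.097). Tbx19 passed the test under 4 alternatives, among them plain UMI totals and the fit without P27NULL. The value for Pitx1, a homeobox gene of the early pituitary, was 0.30 (adjusted p = 0.798), and that for Insm1, a neuroendocrine differentiation factor gene, was −1.35 (adjusted p = 0.216). The median of the 9 was 0.30.

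Of 5 tested receptors and regulators of the stress axis Nr3c1 was higher. Over all genes tested 2.06% were higher and 2.37% lower. Of 17 tested genes of CRH and vasopressin signalling 2 were higher, Adcy2 and Rgs16, and 0 lower, with a median log2 fold change of 0.23. Adcy2 was brought into the test only by its level in the set. Rgs16, a regulator of G protein signalling, had a log2 fold change of 1.5 (adjusted p = 0.00808). Among 13 tested glucocorticoid response genes 3 were higher and 0 lower, with a median of 0.50. They were Rasd1, Cebpd and Mt2, the last a metallothionein gene with a log2 fold change of 0.75 ± 0.19 (adjusted p = 0.0147) that was lost under 8 of 20 alternatives. Fkbp5, which encodes a chaperone of the glucocorticoid receptor, and Klf9, a Krüppel-like factor gene, gave 2.08 (adjusted p = 0.101) and 1.58 (adjusted p = 0.0609).

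Of 13 tested immediate early genes 5 were higher and 0 lower, with a median log2 fold change of 0.96. The shares over all genes tested were 2.06% higher and 2.37% lower. Ier2 was at 2797, 3316 and 2448 CPM in the WT, P27NULL and S2CK libraries, above 1068, 743 and 550 in melanotrophs (1.57 ± 0.14, adjusted p = 8.28e-09). Jun, Junb, Btg2 and Fos had log2 fold changes of 1.96, 1.13, 0.96 and 0.97. In WT the classes were close for Jun (134 CPM against 114 in melanotrophs) and Fos (1379 against 1228). Jun was at 488 against 74.5 in P27NULL and 590 against 47.6 in S2CK, and Fos at 3645 against 842 in P27NULL. With Pomc at 5% or more, 2 genes of this list were called. Of 9 tested heat shock genes 1 was higher, Dnajb1 (2.10, adjusted p = 0.004). Whether dissociation moved these genes was not tested.

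Among ion channel genes 1 of 9 was higher (Kcnk2) and 2 were lower (Kcnmb4 and Scn2a), and among receptors for GABA and dopamine 0 of 5 were higher and 2 lower (Drd2 and Gabra2). For all genes tested the shares were 2.06% higher and 2.37% lower. No cyclin or CDK inhibitor gene of 7 tested was called. Ccnd2, the cyclin D2 gene, chosen after its values were seen, was at 469, 513 and 148 CPM in the set and 439, 116 and 15.5 in melanotrophs, so the classes were close in WT and apart in P27NULL and S2CK. Of 83 ribosomal protein genes 31 were lower and 0 higher (median −0.45), which came to 5 with plain UMI totals. None of 13 mitochondrial transcripts was called.

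**Figure D4:**
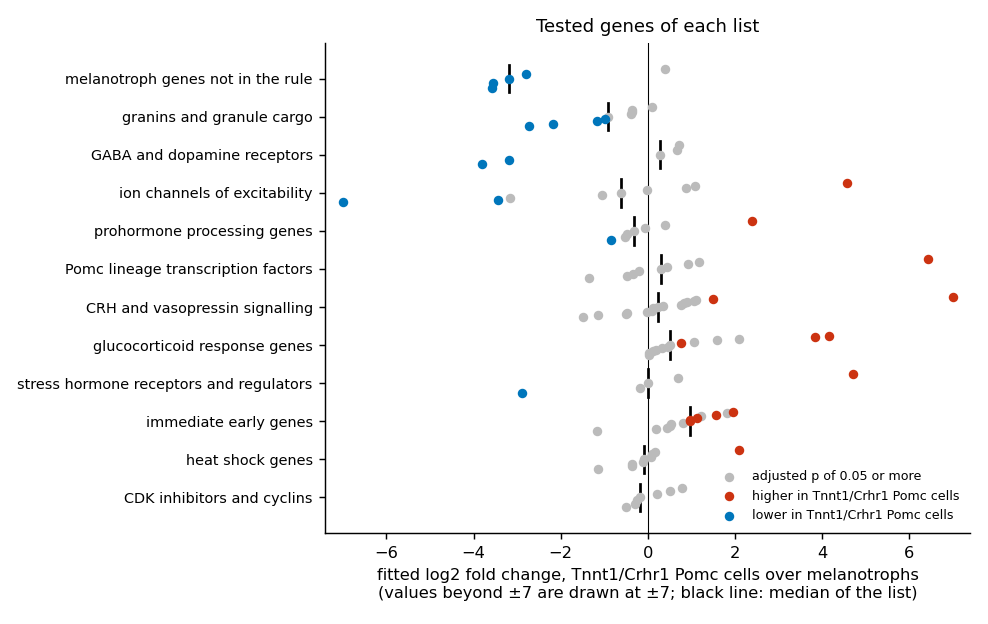
Fitted log2 fold change (Tnnt1/Crhr1 Pomc cells over melanotrophs) of each tested gene of 12 lists, 1 point per gene, with a black line at the list's median; points beyond 7 in size are drawn at 7. Of the melanotroph genes 4 of 5 were lower, of the granins and granule cargo 4 of 9 were lower, and of the immediate early genes 5 of 13 were higher. Of all genes tested 2.06% were higher and 2.37% lower.

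Barcodes with the same markers were also found below the lower limit of 3% Pomc. Among barcodes that met all other limits and had a marker UMI, 52 had Pomc from 0.5% to 1% of their UMIs, 58 from 1% to 2%, 31 from 2% to 3%, 20 from 3% to 4%, 20 from 4% to 6%, 15 from 6% to 10% and 6 at 10% or more. Pooled over libraries, Tnnt1 was at 1515, 1510 and 1337 CPM in the first 3 of these bins, then at 988, 694, 507 and 150. Tnnt1 helped to choose these barcodes, so its levels are a description. It was lower in each bin with more Pomc, and this share is part of the same total.

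The barcodes below the limit also carried transcripts of other cell types. Prl, the prolactin gene of lactotrophs, had 1485 UMIs in the 89 barcodes with Pomc from 1% to 3% (5760 CPM) and 1 UMI in the set (4.89 CPM). Of these UMIs 1385 were in a single WT barcode. Without the barcodes that had at least 10 UMIs of another cell type's markers, 12 of the 141 with Pomc from 0.5% to 3%, Prl was at 55.4 CPM there, above the 30.4 of melanotrophs, and Tnnt1, Tbx19, Nr3c1 and Neurod1 were at 1646, 145, 225 and 102 CPM.

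Tbx19 was at 101, 126 and 161 CPM below the limit, at 201, 221 and 147 in the next 3 bins and at 0 in the 6 barcodes with the most Pomc. That 0 allows up to 184 CPM, and the counting intervals of the 7 bins overlapped, so no rise or fall is read from them. Nr3c1 stayed between 126 and 227 CPM in the bins below 10% Pomc and was at 0 in the last, whose counting interval reached that range. Neurod1 was between 31.6 and 131 CPM in the 7 bins with overlapping intervals. In the pooled melanotrophs Tbx19, Nr3c1 and Neurod1 were at 67.3, 4.24 and 0.548 CPM.

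**Figure D5:**
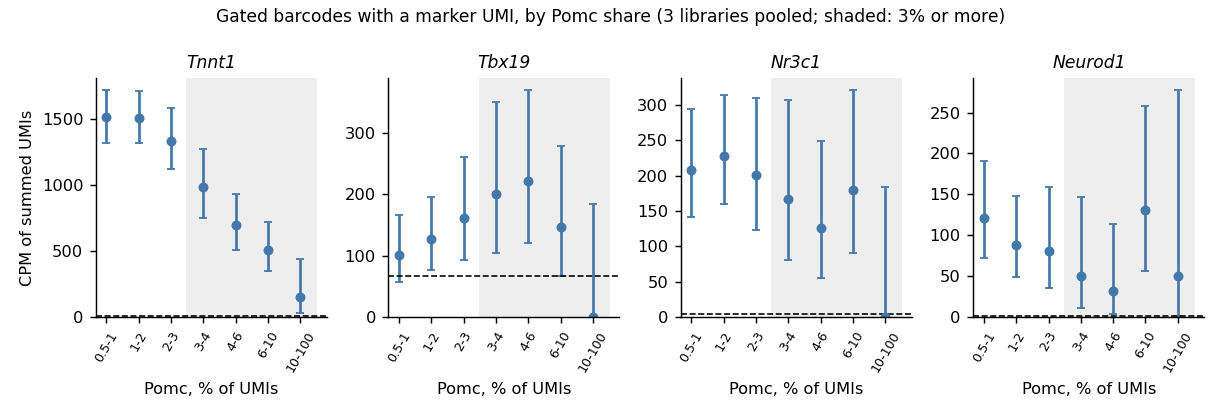
CPM of summed UMIs of Tnnt1, Tbx19, Nr3c1 and Neurod1 in barcodes that met the other limits and had a marker UMI, by Pomc share, pooled over 3 libraries, with exact 95% Poisson intervals (counting error only); the shaded bins are at 3% or more and the dashed line is the melanotroph level. Tnnt1 went from 1515 to 150 CPM, whereas Nr3c1 stayed between 126 and 227 CPM in the first 6 bins.

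Nnat also differed along Pomc. It was at 3264 CPM in the cells with Pomc from 3% to 4%, 1638 from 4% to 10% and 1297 at 10% or more. The 8 cells with Crhr1 and without Tnnt1 UMIs had Nnat at 3640 CPM, the 45 with Tnnt1 and without Crhr1 at 1673 and the 8 with both at 2396. The cells that only Crhr1 brought into the set thus carried Nnat well above the 16.6 CPM of melanotrophs. In the 16 cells with 1 Pcsk2 UMI Nnat was at 840 CPM, against 2520 in the 45 without.

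Between genotypes the levels are a description, because each genotype had 1 library and no test was possible. Cdkn1b, the gene deleted in P27NULL and S2CK mice, had 2, 0 and 1 UMIs in the set, too few to check the labels, and 0 in the 38956 UMIs of P27NULL allows a level of up to 77.0 CPM. In the melanotrophs it was at 33.2, 29.3 and 16.8 CPM, so the libraries labelled P27NULL and S2CK held Cdkn1b transcripts, and which part of the transcript they came from was not analysed here. Sox2 had 9, 4 and 0 UMIs in the set, or 86.2, 103 and 0 CPM, where 0 allows up to 49.2 CPM, and was at 46.2, 41.0 and 26.1 CPM in melanotrophs. Pomc made up 71560, 51880 and 66050 CPM of the summed UMIs, against 174200, 136900 and 140900 in melanotrophs.

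Among the 5 largest increases of each pair of libraries, Jun and Fos are immediate early genes. Jun was at 134 CPM in WT, 488 in P27NULL and 590 in S2CK, log2 ratios over WT of 1.86 (exact 95% counting interval 0.79 to 2.97) and 2.14 (1.21 to 3.14). In the melanotrophs the same ratios were −0.61 and −1.26. Fos was at 1379, 3645 and 1378 CPM, with a log2 ratio of 1.40 for P27NULL over WT (1.06 to 1.75) where melanotrophs had −0.55. Stmn1, the gene of the microtubule regulator stathmin, had a log2 ratio of 1.84 for S2CK over WT (1.32 to 2.37), larger than the 0.50 of melanotrophs. Apoe and Ftl1 ranked high in S2CK over WT (2.08 and 1.45) through the cell with macrophage markers, and were at 0.24 and 0.17 without the 3 cells.

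Among the decreases, some were also present in the melanotrophs of the same libraries. Hist1h2bc, a histone gene, had a log2 ratio of −2.92 for S2CK over WT and −2.25 in melanotrophs, and Pam, the gene of the peptide-amidating enzyme, −1.72 for S2CK over WT and −1.17 in melanotrophs. Sod2, the mitochondrial superoxide dismutase gene, had −2.48 for P27NULL over WT (−5.59 to −0.51) and −0.22 in melanotrophs. Without the 3 cells with other markers the interval of Sod2 reached from −4.96 to 0.13.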

How the data were processed

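According to the study's methods, libraries were made with the 10x Chromium Single Cell 3' kit and read on a HiSeq4000, and the authors made the gene-by-cell UMI counts in Cell Ranger 3.0.2. The submitters' processing notes name STAR 2.5.1b and mm10. Per the labels and file contents, the deposited tables hold whole UMI counts for 1 library per genotype, without normalization, and the study states that barcodes with few genes or many mitochondrial reads had been removed. They hold fewer barcodes than the study states for each library. No further filter on cells was applied and no doublet caller was run, so doublets may remain.

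The cells, gene lists and tests were chosen with earlier results of these data known. UMIs were summed per library and class (6 sums, 2 residual degrees of freedom), and genes with an entry in all 3 tables and a mean of at least 20 CPM were tested in edgeR 4.0.16 (R 4.3.3) with TMM factors, glmQLFit and glmQLFTest, library as a block, two-sided, and Benjamini-Hochberg adjustment over 5443 genes. Because classes of the same library share mice and a droplet run, the block reflects the design. A gene scarce in melanotrophs reached the mean of 20 CPM only if it was high in the set. Pomc, Pcsk2, Pax7, Oacyl and the 4 marker genes were left out of the test. Standard errors are of the fitted log2 fold change. Levels are CPM of summed UMIs, which do not depend on gene length in 3' data but were compared only within a gene. Named genes were the 12 highest and 12 lowest fitted changes among called genes of one direction in all 3 libraries, members of 5 lists, and by genotype the 5 largest changes each way among genes with at least 30 UMIs. Some genes that this rule names are not reported here. A gene with 0 UMIs in a class is given as a bound from 3 counts over the group, and one with 1 to 3 UMIs as a ratio of pooled levels with its exact counting interval. Medians of lists that hold such a gene are the same with it at its bound. Clusters were made per library with scanpy 1.11.5 without the genes of the rule. Coordinates are from RefSeq on GRCm38.p6. Strand-specific overlaps were not resolved.

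The procedure was tested on simulated sums with the same totals and a dispersion set in advance, of which 5215 genes passed the filter. Among changed genes that passed, it recovered 78% of 50 raised by 2 on the log2 scale and 98% of 49 raised by 3. For lowered genes it recovered 60% of 35 lowered by 2 and 55.2% of 29 lowered by 3. Lowered genes that fell under the filter are not in these shares, so recovery of lowered genes is overstated. Intervals cover counting error only, at the 95% level. Alternatives in scaling, filter, test, block, left-out libraries and limits of the rule are given at the end; that without the 3 cells with other markers, Pomc at 1% or more and Pomc from 3% to 10% were chosen after seeing the data.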

Additional observations from a re-analysis of the deposited data

Results flagged for a closer look

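A signal was present in barcodes that the comparisons did not use. The 89 barcodes with Pomc from 1% to 3% of the UMIs that met the other limits and had a marker UMI were 45 in WT, 15 in P27NULL and 29 in S2CK. In their pooled UMIs Tnnt1, one of the genes that chose them, was at 1443 CPM against 3.04 in melanotrophs. Nnat was at 5609 CPM, Nr3c1 at 217, Neurod1 at 85.3 and Tbx19 at 140, where melanotrophs had 16.6, 4.24, 0.548 and 67.3. Their Kcnk2, Rasd1 and Cebpd levels were 702, 753 and 787 CPM. Prl, a lactotroph gene, was at 5760 CPM, with 1385 of its 1485 UMIs in a single WT barcode, against 4.89 CPM in the set. Without the 5 barcodes that had at least 10 UMIs of another cell type's markers Prl was at 72.8 CPM, and Tnnt1, Nnat, Nr3c1, Neurod1 and Tbx19 were at 1534, 5244, 223, 86.5 and 146. In all 89, Drd2 had no UMI and Gulo was at 3.88 CPM. In the clusters made without the genes of the rule, 88.9%, 93.3% and 93.1% of them fell in the cluster that held most of the Tnnt1/Crhr1 Pomc cells of their library. With these barcodes added to the set, 309 genes were higher and 371 lower than in melanotrophs.

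For 2 immediate early genes the Tnnt1/Crhr1 Pomc cells and the melanotrophs went opposite ways between the same libraries, with counting intervals on opposite sides of 0. The log2 ratio of Jun was 1.86 for P27NULL over WT and 2.14 for S2CK over WT in the set, and −0.61 and −1.26 in melanotrophs. That of Fos was 1.40 for P27NULL over WT in the set and −0.55 in melanotrophs. With 1 library per genotype these differences were not tested. Without the 3 cells with other markers the ratios in the set were 1.84, 2.12 and 1.49.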

How the results depend on the processing

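The Nnat, Kcnk2, Nr3c1, Neurod1, Cebpd, Rasd1 and Gulo calls held under each alternative that could test them, and no named call turned direction. The counts of genes moved more. With plain UMI totals 208 genes were higher and 57 lower, without the library block (no pairing of the sums) 66 and 48, without the marker requirement 174 higher, with Pomc at 5% or more 37 and 82, and with Pomc at 1% or more 309 and 371. DESeq2's Wald test called 74 genes lower and no filter on low counts 261. Leaving out 1 library at a time gave 76 to 113 higher and 96 to 139 lower. Without the cells of highest UMI total the counts were 92 and 121, and the calls of Megf11, Rbfox3, Qpct and Mt2 were lost. Without the block the calls of Cartpt, Klk1, Gabra2, Megf11, Cpe and Mt2 were lost.

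The share in WT was 0.792% with at least 2 marker UMIs, 3.12% with none required, 1.04% with no Pcsk2 UMI, 0.941% with Pomc at 5% or more and 3.76% at 1% or more. In P27NULL it was 0.819% with no marker required, 0.144% at 5% and 0.698% at 1%, and in S2CK 1.15%, 0.172% and 1.29%. The causes of these moves were not tested beyond the change in the cells chosen. The set held 204352 UMIs, so a gene at 0 in it could be at up to 14.7 CPM, and 21 called genes had fewer than 4 UMIs in it.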

Other observations

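A further 76 barcodes met the Pomc, Pcsk2, Pax7 and Oacyl limits without a UMI of any marker (32 in WT, 20 in P27NULL and 24 in S2CK). They held cells of different kinds. The 28 that fell in the cluster of the Tnnt1/Crhr1 Pomc cells had Nnat at 3767 CPM, Chga at 789 CPM and no Gulo UMI. The 48 that fell elsewhere had Nnat at 52.7 CPM, Chga at 906, Calb1 at 432, Esm1 at 126 and Gulo at 73.8. The clusters were made on these same genes, so the values are a description with no test.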
